A study of Mus musculus with 8 samples.

Results

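The genes studied here encode parts of the sarcomere, the contractile unit of striated muscle, and were followed in the retinas of aged mice. The set holds 10 genes, the myomesins Myom1, Myom2 and Myom3 and also Acta1, Actn2, Actn3, Ttn, Tnnt1, Myl1 and Ckm. Their probes were found by matching the RefSeq accession of each array probe to these symbols, which gave 16 of the 56605 probes on the array, with at least 1 for each gene. Myom2 was chosen by its measured signal, as 1 of the genes with the largest difference between the genotypes on these same arrays, and the others were set around it as muscle genes with results of this contrast known. The genotype differences of the 10 genes are therefore given as descriptions, with no test.

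Retinal RNA was hybridized to 8 one-color Agilent arrays. By their labels, 4 samples came from mice homozygous for the Mrp4 knockout and 4 from wild-type mice, all 46 to 55 weeks old. The knockout line had a C57BL/6J background, Mrp4 is the gene Abcc4, and the methods name tissue from 3 mice but not whether each sample pooled them or samples of a genotype shared animals. The p-values given here then measure only the spread between these samples.

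In a sarcomere, actin-based thin filaments are anchored at the Z-disc and myosin-based thick filaments are crosslinked at the M-band in the middle. Titin spans from the Z-disc to the M-band, and the myomesins bind myosin and titin there as elastic crosslinks. Myomesin 1 is found in all striated muscle, whereas myomesin 2 (M-protein) and myomesin 3 are used in subsets of fibers. The neural retina has no striated muscle, but the eye muscles lie against the globe, and pericytes and the iris hold contractile cells of the smooth type.

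The arrays were described first. On each array 66.0% to 69.9% of probes exceeded background clearly by the scanner software's call (well above background), and the signal had a 75th percentile of 497 to 786. The lowest were array 2 with the Mrp4-null label (497) and array 3 of wild-type (514). All 11 markers of rods and cones and all 14 of inner retinal cells were well above background on every array. Abcc4 itself had a normalized log2 signal of 10.75 ± 0.09 (SD, n = 4) under the Mrp4-null label, against 6.83 ± 0.29 (SD, n = 4) in wild-type. The targeted gene was thus higher under the knockout label, as the paper also lists it. Its single probe was well above background on every array of both labels, and whether the labels are right was not tested. The directions below follow the labels as deposited, and "wild-type" too stands for the label. The sexes were also unequal, since Xist was detected clearly on 2 wild-type arrays and on each of the 4 labelled Mrp4-null, while Y-linked probes were so on 3 wild-type arrays and on 0 of the others. Array 2 of wild-type carried both signals. The position on the slide cannot be told apart from the genotype, because each genotype filled 1 row.

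Of the 16 probes, 10 were retained, that is, in 1 genotype or both each array that measured them called them well above background. They stood for 8 of the 10 genes. Ttn, with 3 probes, and Ckm, with 1, had none. Actn3 passed only through the arrays labelled Mrp4-null, since its signal was 5.89 on the third wild-type array and not above background there. The probe of Ttn closest to passing, A_55_P2153021, passed the call on 3 wild-type arrays and on 1 labelled Mrp4-null, with signals of 7.09 to 19.6. The signals below are quantile-normalized log2 intensities, unless called unnormalized or of a probe not retained. Because probes differ in how strongly they bind, a level is compared only between arrays and not between genes.

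Among the 3 myomesins, Myom2 was far higher on the arrays labelled Mrp4-null, Myom1 was nearly level and Myom3 was lower. The unnormalized signal of the single Myom2 probe (A_51_P431785) was 529, 267, 421 and 500.5 on arrays 1 to 4 labelled Mrp4-null. It was 36.8, 39.9, 19.5 and 23.5 on wild-type arrays 1 to 4. All wild-type values were thus low but above the lowest signal called well above background there, 11.5 to 13.8. After normalization Myom2 had means of 8.64 ± 0.21 and, in wild-type, 4.92 ± 0.28 (SD, n = 4 each), which gives a log2 difference of 3.73 (SE 0.16), or 13.3-fold with a 95% interval of 10.3 to 17.1. There was no overlap, and the lowest array labelled Mrp4-null (8.40) lay well above the highest wild-type array (5.18). In size this difference ranked 9 among the 37085 retained probes. The wild-type array without a Y-linked signal, the first, had 5.08, and the part of sex in the difference was not tested. As a share of the 75th percentile of the same array, the signal was 0.538 to 0.684 under the Mrp4-null label and 0.0379 to 0.0526 in wild-type. With a background correction that adds an offset (normexp), the log2 difference was 2.26.

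Myom1, the myomesin of all striated muscle, had normalized log2 signals of 7.11, 6.96, 7.13 and 7.26 on the arrays labelled Mrp4-null. The wild-type arrays had 6.84, 7.21, 6.74 and 7.14. These values overlapped, and the log2 difference of 0.13 (SE 0.13, 95% interval -0.16 to 0.42) was within the spread between arrays. Myom3, by contrast, had 6.86, 6.62, 6.74 and 6.73 under the Mrp4-null label, against 7.62, 7.34, 7.17 and 7.09 in wild-type. Every array labelled Mrp4-null was below every wild-type array. The log2 difference of Myom3 was -0.57 (SE 0.12, 95% interval -0.85 to -0.29), which runs opposite to that of Myom2 and is under the 1.5-fold limit used here. With the normexp correction it was -0.35.

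**Figure D1:**
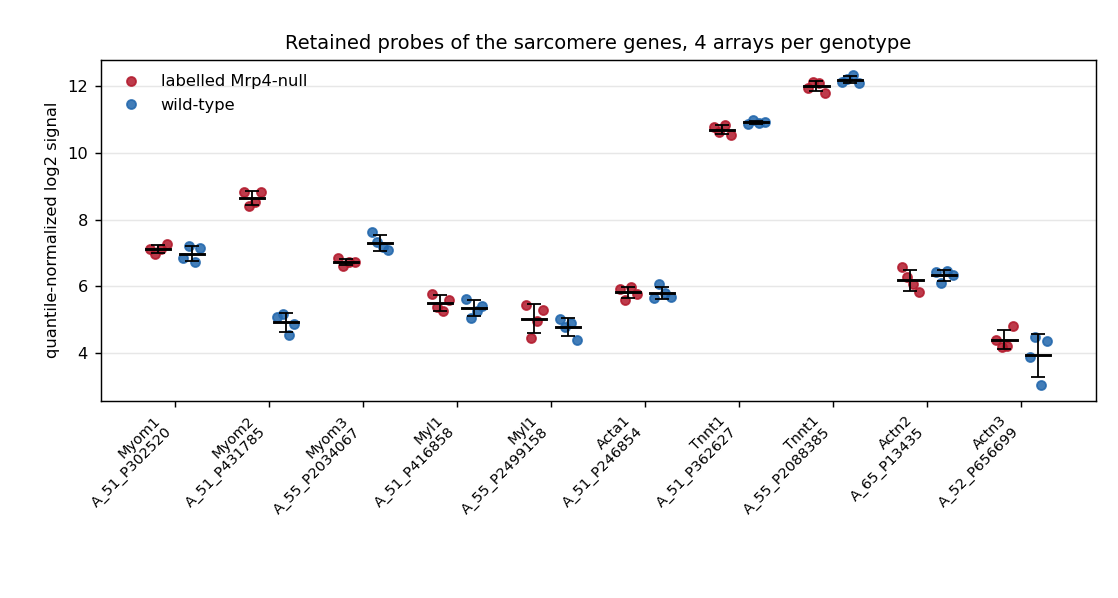
Normalized log2 signal (vertical axis) of the 10 retained probes of the sarcomere genes, with 1 point per array, 4 arrays labelled Mrp4-null in red and 4 wild-type arrays in blue. The lines are means with SD, and Myom2 is the probe whose groups lie far apart (8.64 against 4.92), while Myom3 and 1 probe of Tnnt1 (A_51_P362627) are separated by small gaps.

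Thick filament parts gave no difference of that kind. Myl1, the fast skeletal essential light chain of myosin, was retained by 2 of its 3 probes. The first (A_51_P416858) was at 5.50 ± 0.24 (SD, n = 4) on the arrays labelled Mrp4-null and at 5.34 ± 0.24 (SD, n = 4) in wild-type, a log2 difference of 0.16 (SE 0.15). The second (A_55_P2499158) had a log2 difference of 0.25 (SE 0.23), and on both probes the genotypes overlapped. The remaining Myl1 probe, for another transcript, was not above background on any array, with signals of 2.56 to 4.98. Titin was at the limit of detection, with signals of 2.46 to 19.6 over its 3 probes and 8 arrays.

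Thin filament and Z-disc parts also gave no difference of the size seen for Myom2. Acta1, the actin of skeletal muscle, had unnormalized signals of 68.0, 41.6, 75.2 and 57.2 under the Mrp4-null label and 55.0, 74.7, 46.2 and 42.3 in wild-type. Its normalized log2 difference was 0.02 (SE 0.12, 95% interval -0.26 to 0.30), with the genotypes overlapping. Tnnt1 encodes the slow skeletal troponin T, which ties the troponin complex to tropomyosin, and both of its probes were well above background on every array. Its probe A_51_P362627 had normalized log2 signals of 10.78, 10.64, 10.85 and 10.54 under the Mrp4-null label and 10.86, 10.98, 10.91 and 10.92 in wild-type. The arrays did not overlap there, by a gap far smaller than that of Myom2. The log2 difference was -0.22 (SE 0.09, 95% interval -0.42 to -0.02). The second probe, A_55_P2088385, had -0.20 (SE 0.10) with overlapping arrays. Actn2, the Z-disc actinin of heart and skeletal muscle, was measured by probe A_65_P13435 at 6.19 ± 0.32 (SD, n = 4) and in wild-type at 6.33 ± 0.16 (SD, n = 4), which gives a log2 difference of -0.15 (SE 0.16). Its other probe stayed below that call on all 8 arrays, with signals of 2.57 to 13.8. Actn3, the actinin of fast fibers, was scattered, with means of 4.40 ± 0.28 and, in wild-type, 3.93 ± 0.65 (SD, n = 4 each). Its log2 difference of 0.47 (SE 0.30) had a wide 95% interval, -0.22 to 1.16. Ckm, the muscle creatine kinase that docks at the M-band, was not above background on any of the 8 arrays, with signals of 2.46 to 4.54.

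The sequences before the transcription start are shown for 3 genes, Tnnt1 and Acta1, whose retained probes were well above background on all arrays, and Ckm, whose probe was so on none. They are from RefSeq on GRCm38.p6, written 5′ to 3′, and end at the base before the start. Promoter sequences were matched for 8 of the 10 genes, with none for Myom2 or Actn3. Capitals mark the TATA sequence TATAAA, the CArG box bound by SRF, the MEF2 site and the MCAT sequence GGAATG, each searched on both strands.
Tnnt1 (chr7:4515976-4516225, minus strand): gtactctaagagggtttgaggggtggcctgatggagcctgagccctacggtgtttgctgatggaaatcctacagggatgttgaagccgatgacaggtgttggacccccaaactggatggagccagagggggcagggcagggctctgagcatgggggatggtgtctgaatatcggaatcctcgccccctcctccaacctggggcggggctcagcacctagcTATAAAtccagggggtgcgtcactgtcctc
Acta1 (chr8:123894776-123895025, minus strand): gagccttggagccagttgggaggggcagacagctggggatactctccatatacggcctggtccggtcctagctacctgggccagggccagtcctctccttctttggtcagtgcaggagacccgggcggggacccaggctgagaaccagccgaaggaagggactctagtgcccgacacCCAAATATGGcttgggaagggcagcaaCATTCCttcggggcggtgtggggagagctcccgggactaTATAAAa
Ckm (chr7:19410844-19411093, plus strand): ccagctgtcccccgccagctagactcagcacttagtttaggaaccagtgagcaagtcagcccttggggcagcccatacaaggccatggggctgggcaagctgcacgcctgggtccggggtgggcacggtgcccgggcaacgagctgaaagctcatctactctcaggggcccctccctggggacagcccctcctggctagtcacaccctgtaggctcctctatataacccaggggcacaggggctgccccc

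Within these 250 bases, Tnnt1 held TATAAA 30 bases before the start. Acta1 held a CArG box 73 bases before the start, GGAATG on the opposite strand 46 bases before it and TATAAA 7 bases before it. In Ckm none of the 4 motifs was found in this window by exact match. Its printed sequence does hold tatataa near the start, which the search for TATAAA does not match. Over the 8 genes, TATAAA was found in 3 (12.4% of all 32851 promoters), the CArG box in 2, Acta1 and Myom1 (1.5% of all), the MEF2 site in 2, Myom3 and Ttn (2.9% of all), and GGAATG in 2 (12.6% of all). The E-box CANNTG, which is not in capitals above and can overlap the other motifs, was in all 8 and in 66.2% of all promoters. These matches are descriptions of the letters and were not set against the array signals.

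Side by side with Myom2, which was picked for its difference, the other 9 retained probes had log2 differences of -0.57 to 0.47 with a median of 0.02, 5 of them above 0 and 4 below, while the median over all retained probes was -0.01. The upper end, Actn3, was at 0.20 without the third wild-type array. For 6 of the 9 the 95% interval stayed within 1.5-fold in both directions. The exceptions were Myom3, Actn3 and the second Myl1 probe. With an adjusted p under 0.05 and a 1.5-fold or greater change as limits, limma called 0.545% of all retained probes, and 1 of these 10 was among them, that of Myom2, as its selection on this contrast had fixed. For 3 of the 10 there was no overlap between the genotypes (Myom2, Myom3 and 1 probe of Tnnt1), against 4.79% of all retained probes. Nothing is read from these counts.

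**Figure D2:**
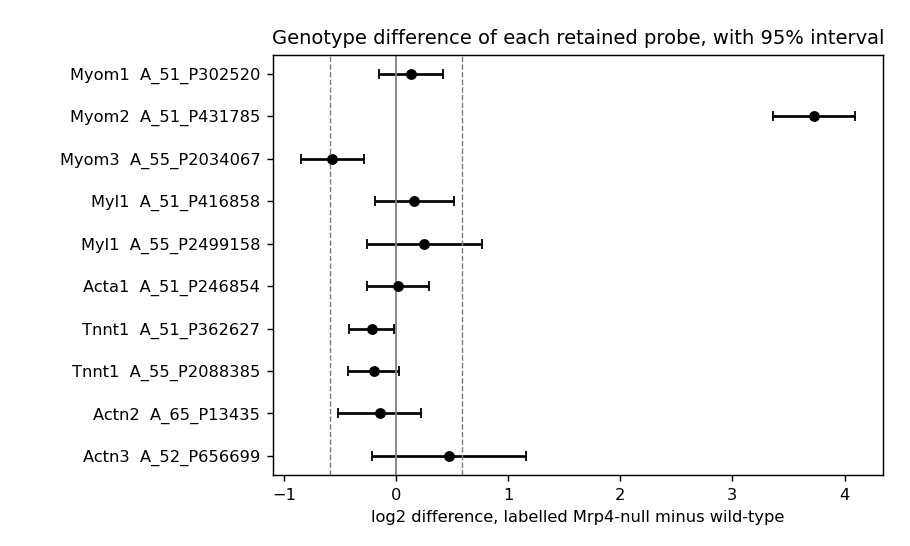
Log2 difference (horizontal axis, labelled Mrp4-null minus wild-type, 4 arrays each) of the 10 retained probes, with points as fitted differences and bars as 95% intervals. Myom2 lies at 3.73, the other 9 between -0.57 and 0.47, and the dashed lines mark a 1.5-fold difference.

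The question of whether other muscle genes went with Myom2 was then put to 120 further genes of the sarcomere and of striated muscle, in 7 groups by role. All 120 had a probe and 80 had a retained one. Limma called 0 of the 80 higher and 0 lower, and the local pooled error test also called 0. An unadjusted p under 0.05 was found for 5 of the 80, by the brightest probe of each gene, and for 1062 of all 16093 named genes. Named genes with any probe called made up 0.652% of those tested. The 80 genes had a median log2 difference of -0.002, with 39 higher and 41 lower, against a median of -0.01 over all named genes, and the genotypes did not overlap in 1.25% of them against 5.44% of all named genes.

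In the M-band group, where Myom2 belongs, 5 of 9 further genes were retained, and the median log2 difference was 0.10. Trim63, the ubiquitin ligase MuRF1 that binds titin at the M-band, with means of 4.87 ± 0.16 and, in wild-type, 4.42 ± 0.24 (SD, n = 4 each), differed by 0.45 (SE 0.14, adjusted p = 0.402 from limma). Cmya5 (myospryn) had 0.49 (SE 0.28). All 5 retained genes of this group were above 0, down to Fhl2 at 0.03 (SE 0.18), and none passed the test. Of all 16093 named genes, 7445 were above 0, and all 9 retained myogenic regulators were below 0.

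Of 20 further thick filament genes 11 were retained, with a median of 0.02. The skeletal myosin heavy chains Myh1, Myh2, Myh4 and Myh8 and Myh13, the form of eye muscles, were not retained. The extremes were the heart and embryonic forms Myh6 at 0.21 (SE 0.24) and Myl4 at -0.24 (SE 0.10), next to Myh7b at 0.20 and Myl7 at -0.21. Of 18 thin filament genes 17 were retained, with a median of -0.01. Nrap, which takes part in building myofibrils, was the furthest from 0 of the 80 genes, at 4.50 ± 0.48 (SD, n = 4) against 5.45 ± 0.17 (SD, n = 4). Its arrays did not overlap and its log2 difference was -0.96 (SE 0.22), but it did not pass the test (adjusted p = 0.188 from limma). Tnnt2, the troponin T of heart, had 0.57 (SE 0.37), with a normalized log2 signal of 7.87 on Mrp4-null array 3 and of 5.75 to 6.36 on the other arrays. The same array also had the highest unnormalized signals of the myeloid markers Cd68 (626, against 136 to 235 on the others) and Ptprc (87.7, against 5.01 to 24.9). Their part in the Tnnt2 value was not tested. Next in either direction were Tmod4, which caps the pointed end of thin filaments, at 0.11 and Nebl at -0.07.

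Of 23 Z-disc and costamere genes 15 were retained, with a median of 0.06 and a range from -0.34 for Cryab, a small heat shock protein that is also abundant in lens, to 0.28 for Myoz3. Synpo2 had 0.24 and Dmd, the gene of dystrophin, had -0.08. Of 22 genes of calcium handling and excitation 12 were retained, with a median of -0.10. Casq2, the calsequestrin of heart, had -0.35 (SE 0.14) and Atp2a1, the calcium pump of fast fibers, had 0.25 (SE 0.10). Chrnb1, a subunit of the muscle acetylcholine receptor, had -0.32 and Stac3 had 0.15. Of 13 genes of muscle energy metabolism 11 were retained, with a median of -0.03. Here Cox8b had -0.48 (SE 0.23) and Cox6a2 had 0.27 (SE 0.17), both muscle-type subunits of cytochrome c oxidase, as is Cox7a1 at -0.30, and Eno3, the muscle enolase, had 0.16. Of 15 myogenic regulators 9 were retained, and the values ran from -0.15 for Mef2d and -0.14 for Myf6 to -0.0005 for Srf, with Myod1, Myog and Myf5 not retained. Over the 7 groups the highest log2 difference was thus the 0.57 of Tnnt2, which was 0.15 without Mrp4-null array 3.

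**Figure D3:**
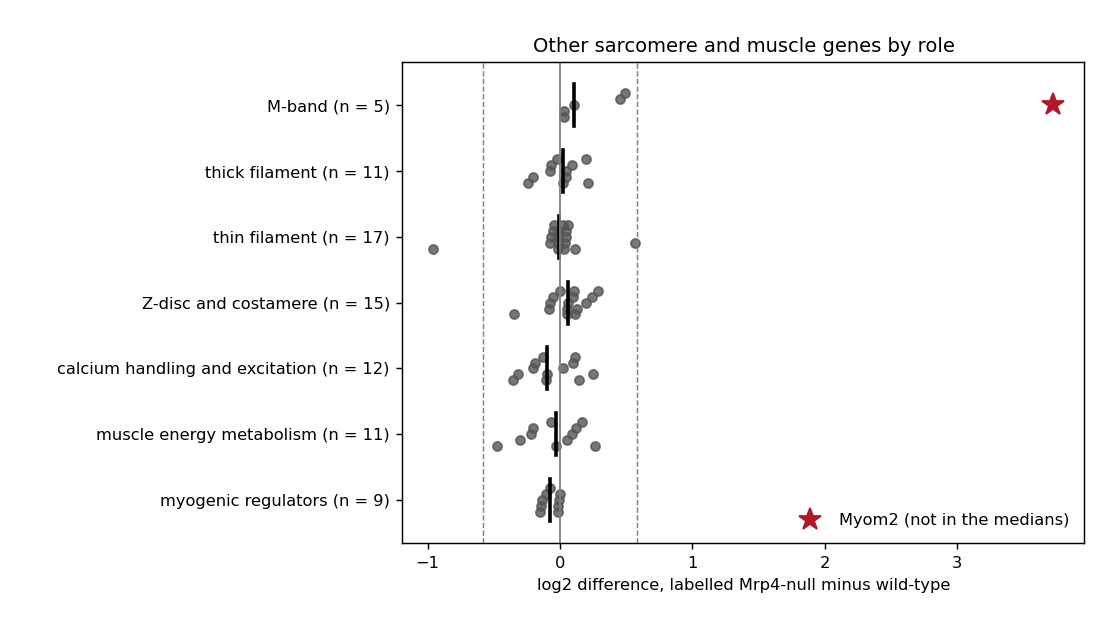
Log2 difference (horizontal axis, labelled Mrp4-null minus wild-type) of the 80 retained muscle genes outside the set, 1 point per gene by its brightest probe, in 7 groups by role with the group's median as a bar. The star is Myom2 at 3.73, and the other genes lie between -0.96 (Nrap) and 0.57 (Tnnt2). The dashed lines mark a 1.5-fold difference.

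Markers of muscle cells were read beside Myom2. Of 16 markers of eye or other skeletal muscle, 7 were well above background on all 8 arrays (Acta1, Mylpf, Tnnt3, Tnnc2, Atp2a1, Casq1 and Ryr1), and Ckm, Myh2, Myh4 and Mb (myoglobin) on none. Their summed signal ran from 441 to 773 under the Mrp4-null label and from 448 to 698 in wild-type, so the groups overlapped. For smooth muscle and pericytes, 9 of 12 markers were well above background on all arrays (Acta2, Myh11, Tagln, Actg2, Smtn, Pdgfrb, Rgs5, Kcnj8 and Abcc9), Cnn1, Des and Lmod1 were so on none, and the sums were 3442 to 5198 against 3703 to 5246. For heart muscle, 6 of 7 markers were well above background on all arrays, with sums of 482 to 825 against 482 to 726. Limma called 0 markers of these 3 lists, against 0.545% of all retained probes, and markers not retained could not be called. Nothing is read from this count. In whole tissue, fewer cells of a type and less RNA per cell cannot be told apart. Lens markers, with 11 of 12 well above background on all arrays, summed to 2558 to 28123 against 7517 to 66946. All 12 had a lower normalized mean under the Mrp4-null label, by log2 differences of -2.47 to -0.94 with a median of -1.42, none called by limma, and the part of tissue carried along at dissection in the sarcomere genes was not tested.

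The array-to-array variation of Myom2 within a genotype was compared with that of the other members. In each genotype the array with the lowest 75th percentile also had the lowest normalized Myom2 signal, 8.40 and, in wild-type, 4.54, and the part of signal strength in this was not tested. Over the deviations of the 8 arrays from their genotype means, Pearson's r with Myom2 was 0.66 for Myom1, 0.61 for Myom3, 0.79 for Actn3, 0.36 for Acta1 and -0.28 for Actn2. It was 0.33 and 0.53 for the Myl1 probes and -0.03 and -0.71 for the Tnnt1 probes. The median over these 9 probes was 0.36, against 0.14 over all named genes, whose values ran from -0.998 to 0.995. Wild-type array 3, where Actn3 was not above background, carried much of the highest value, and without it r was 0.50 for Actn3, 0.39 for Myom1 and 0.91 for the second Myl1 probe, with a median of 0.39 over the 9. These values rest on 8 arrays that share the normalization and are given as a description.

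The named genes most like Myom2 over the 8 arrays were Abcc4 (r = 0.995), Rb1 (0.994), Masp2 (0.992), Pdzd8 (0.991) and Crybg2 (0.990), out of 16087. The arrays form 2 separate clusters for each of these genes, so the ranking mostly reflects the difference between the genotypes. Over the deviations from the genotype means the closest were Dhrs7 (0.995), Gnl2 (0.993), Psmd9 (0.986), Umodl1 (0.984) and Bcl2l11 (0.983), with log2 differences between the genotypes of -0.11 to 0.10. Neither ranking placed a gene of the sarcomere or of the muscle lists in its first 5. Such genes are so few among the 16087 that nothing is read from this.

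By position, Myom2 lies on chromosome 8, where 35 of 837 named genes tested had a called probe (4.18%, Myom2 included, against 0.652% of all named genes). Acta1 lies on the same chromosome. Of the other members' chromosomes, chromosome 4, that of Myom3, had 23 of 1015 called and the rest had 1 to 3 each. Among the 10 nearest named genes with a retained probe on each side of Myom2 in the gene order of GRCm38.p6, limma called 2 of 20 (10%), Kbtbd11 and Agpat5, where it called 3.64% of the genes of chromosome 8 that lie farther than 20 genes from Myom2. Whether 2 of 20 differs from that share was not tested. Agpat5, an acyltransferase of phospholipid synthesis, was lower on each of its probes, at -2.91 and -0.61 on the log2 scale (adjusted p = 5.25e-06 and 0.0206 from limma). Kbtbd11 was lower by 1 probe, at -2.13 (adjusted p = 0.00549 from limma), and its brighter probe had -0.24. The direct neighbor Csmd1 was at 6.49 against 7.67, a log2 difference of -1.18 (SE 0.22), which limma did not call (adjusted p = 0.0705). The neighbor with the highest value, Defb9, a defensin, had a log2 difference of 1.44 (SE 0.38) and missed the limit (adjusted p = 0.289 from limma). The local pooled error test called 5 of the 20, lower for Agpat5, Kbtbd11 and Csmd1 and higher for Defb9 and 2610005L07Rik (log2 difference 0.75). By that test both directions thus occurred beside Myom2, whereas the genes called by limma were lower. The same count, made for the other 9 members after the values for Myom2 were seen, was 0 of 20 in each case, which at 0.652% of named genes called does not set them apart.

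**Figure D4:**
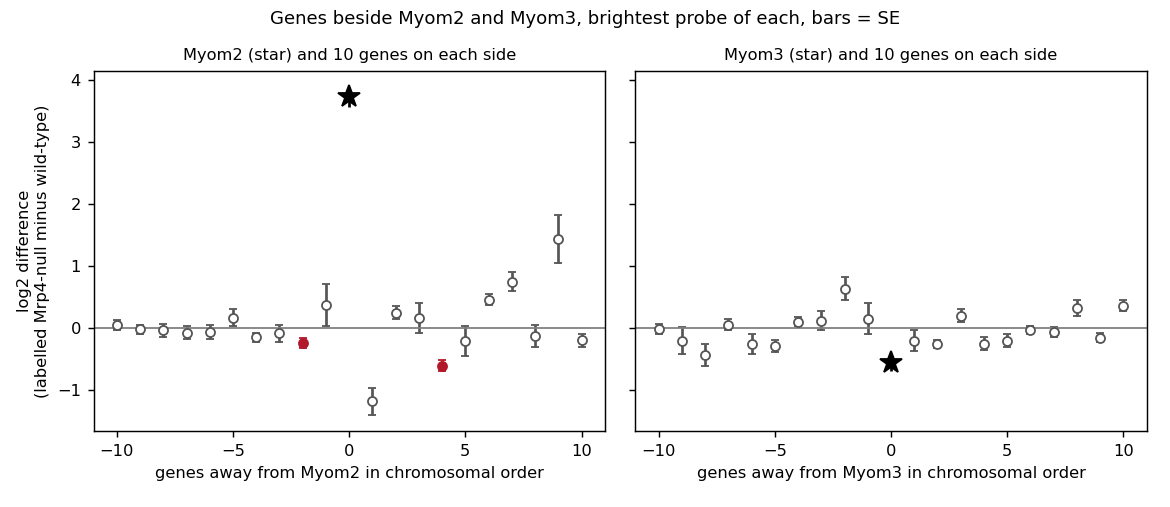
Log2 difference (vertical axis, labelled Mrp4-null minus wild-type, bars are SE) of the 10 named genes on each side of Myom2 (left) and Myom3 (right) by chromosomal order (horizontal axis), each gene by its brightest probe. Filled red points are genes with any called probe (Kbtbd11 and Agpat5, both beside Myom2), and the stars are Myom2 at 3.73 and Myom3 at -0.57.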

How the data were processed

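The authors deposited the scanner output of 8 one-color arrays, in which Agilent Feature Extraction 11.0.1.1 had subtracted background from each spot's signal intensity and removed spatial trends, and a series table that equals the mean processed intensity per probe. The array design is annotated on an older build than the gene table (GRCm38.p6), which served for names and gene order. Of 56605 probes, 32994 (58.3%) matched a gene.

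Control and outlier spots were left out, and log2 intensities were averaged per probe. A probe was retained if, in 1 genotype or both, each array that measured it called it well above background (3 or more arrays there, 2 or more in the other). The 37085 retained probes were quantile-normalized, as in the methods. R 4.3.3 with limma 3.58.1 (lmFit, eBayes, genotype as the only term) was used, with Benjamini-Hochberg adjustment over all retained probes. The fit was tested on simulated data. The number of arrays limits the precision.

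Values of unretained probes are unnormalized signals. Likeness is Pearson's r. Named were all members, Abcc4, up to 2 genes with the largest rise and 2 with the largest fall in each muscle group, the 5 genes most like Myom2 by either measure, its called neighbors and detected muscle markers. Other genes were named after their values were seen. Members and lists were chosen with earlier results of these data known. Alternatives covered the scaling (75th percentile, cyclic loess), the background (normexp, offset 50), the filters, outlier spots, the series table, arrays left out and the model (the methods' local pooled error test, written here, robust variances with a trend, or sample number as a block).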

Additional observations from a re-analysis of the deposited data

How the results depend on the processing

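Limma called 202 probes. With both arrays of lowest 75th percentile left out it called 128, and with 1 array left out 117 to 188, where the count fell by over 1.5 times without wild-type array 2 (131), wild-type array 3 (129) or wild-type array 4 (117). With the sample number as a replicate block it called 71 probes and 1 neighbor of Myom2. Same-numbered arrays had no common direction of deviation (r = -0.29, -0.69, 0.03 and 0.41). Whether the numbers pair the samples cannot be told from these values. The log2 difference of Myom2 was 2.26 under normexp, whose offset of 50 compresses dim signals, and 3.61 to 3.83 with 1 array left out. Limma called 2 of 20 neighbors of Myom2, and 2 or 3 with 1 array left out. The local pooled error test called 5, 2 of them higher (Defb9 and 2610005L07Rik). With 20 genes on each side limma called 5 of 40, all of them lower under the Mrp4-null label. The median r of the other members with Myom2 was 0.36 over deviations and 0.10 over all 8 arrays. The count of 0 called muscle genes held under all 19 alternatives run on it. With 0.652% of all named genes called, few or none of the 80 would be called anyway, so this adds little. Of 170 values of the other members, 1 moved by more than the spread between arrays (Myom3 under normexp, -0.35). With 1 array left out, several of these differences still shifted by over 1.5 times. The ranges were 0.05 to 0.21 for Myom1 (lowest without wild-type array 3) and 0.20 to 0.67 for Actn3 (lowest without wild-type array 3). They were 0.07 to 0.26 and 0.11 to 0.45 for the Myl1 probes (without wild-type array 2 and 1, and Mrp4-null array 1 and 2). Actn2 ran from -0.27 to -0.02 (Mrp4-null array 1 and 4) and Acta1 from -0.04 to 0.10 (Mrp4-null array 3 and wild-type array 2). The wild-type level of Myom2 lay close to background, which limits how well the size of its difference is known. The values of Tnnt2 and of r with an array left out were chosen after seeing the data.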
